A study of Mus musculus with 8 samples.

Results

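Proteasome subunit genes were followed across single bone marrow progenitor cells of wild type mice and of mice carrying 1 functional copy of Mof. The genes were taken by name, as every row of the 8 library files that starts with Psma, Psmb, Psmc, Psmd, Psme, Psmf or Psmg and a digit, leaving out names that end in -ps. This gave 50 of the 19879 named genes in the files, and GENCODE vM21 lists all 50 as protein-coding. One of them, Psmc3ip, encodes a partner protein in meiotic recombination and no proteasome subunit. The remaining 49 are 7 alpha and 7 constitutive beta subunits of the 20S core, 3 immunoproteasome beta subunits, 2 tissue-restricted core subunits, 6 ATPases and 11 other subunits of the 19S cap, 6 activators and inhibitors, and 7 assembly chaperones.

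The libraries were made with CEL-Seq2, which tags the 3′ end of each captured transcript with a molecular identifier, so that a transcript counts once and levels are not divided by gene length. Mof, now named Kat8, encodes a histone acetyltransferase, and the labels give the genotypes as wild type and Mof -/+. Each genotype has 2 libraries called HSC, after the haematopoietic stem cell gate, and 2 called plate2. The design text lists further gates of erythroid, granulocyte-monocyte and megakaryocyte progenitors, and the labels do not say from which gate a plate2 well came. Strain, age and sex of the animals are not given in the labels used here, and nothing says that the libraries of a group came from separate mice. P-values here cover the spread between libraries alone, and that spread may be technical.

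The 26S proteasome is the main protease for proteins tagged with ubiquitin. Its 20S core is a barrel of alpha and beta rings in which Psmb5, Psmb6 and Psmb7 encode the cutting subunits, and its 19S cap binds, unfolds and feeds in the substrate. Blood and immune cells can build in Psmb8, Psmb9 and Psmb10 in place of Psmb5, Psmb6 and Psmb7, respectively. The resulting immunoproteasome is known for cutting peptides for presentation on MHC class I and is induced by interferon gamma.

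Promoters of 42 of the 50 genes were in the RefSeq table (GRCm38.p6). The 250 bases before the start are shown for 5 genes on which the comparisons below turn, with a motif in capitals wherever it occurs on either strand. Psma1 and Psma2 encode alpha subunits that were higher in the plate2 libraries, Psmb9 is an immunoproteasome gene that was higher there, and Psmb5 and Psmb6 are constitutive counterparts that were not. In the first 3 the capitals mark CCAAT, the binding motif of NF-Y (ATTGG on the other strand), and in the last 2 TGACNNNGC, the core of the antioxidant response element. They lie at chr7:114276117-114276366 (minus strand), chr13:14612992-14613241 (plus), chr17:34187331-34187580 (minus), chr14:54617996-54618245 (minus) and chr11:70525107-70525356 (plus), in this order.
Psma1: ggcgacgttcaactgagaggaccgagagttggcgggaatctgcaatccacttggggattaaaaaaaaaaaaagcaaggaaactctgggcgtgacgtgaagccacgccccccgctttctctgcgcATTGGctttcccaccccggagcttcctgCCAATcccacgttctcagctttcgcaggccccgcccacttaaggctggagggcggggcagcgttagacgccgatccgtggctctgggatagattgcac
Psma2: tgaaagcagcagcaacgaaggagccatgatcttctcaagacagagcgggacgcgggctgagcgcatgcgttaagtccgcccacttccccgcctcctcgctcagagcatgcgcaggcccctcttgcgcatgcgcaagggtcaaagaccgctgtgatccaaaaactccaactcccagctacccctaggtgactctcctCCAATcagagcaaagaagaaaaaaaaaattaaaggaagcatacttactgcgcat
Psmb9: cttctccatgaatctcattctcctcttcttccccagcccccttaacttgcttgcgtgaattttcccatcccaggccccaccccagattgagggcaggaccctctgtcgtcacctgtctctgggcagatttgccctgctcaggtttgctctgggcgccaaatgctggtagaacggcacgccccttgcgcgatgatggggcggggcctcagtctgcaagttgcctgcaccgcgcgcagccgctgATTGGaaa
Psmb5: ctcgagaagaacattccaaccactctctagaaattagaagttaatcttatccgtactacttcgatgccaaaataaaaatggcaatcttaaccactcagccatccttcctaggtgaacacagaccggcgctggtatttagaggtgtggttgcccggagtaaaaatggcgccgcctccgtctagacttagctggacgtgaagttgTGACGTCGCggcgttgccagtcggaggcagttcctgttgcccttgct
Psmb6: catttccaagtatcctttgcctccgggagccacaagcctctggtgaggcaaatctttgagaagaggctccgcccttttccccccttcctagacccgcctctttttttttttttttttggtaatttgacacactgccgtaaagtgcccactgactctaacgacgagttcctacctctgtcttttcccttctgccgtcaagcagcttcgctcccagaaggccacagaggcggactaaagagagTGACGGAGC
CCAAT was found in 15 of the 42 promoters (35.71%), against 33.85% of all 32851 promoters in the table. TGACNNNGC was found in 5 of 42 (11.9%, in Psmb5, Psmb6, Psmc6, Psmd12 and Psmd9) against 10.16% of all. The core of the interferon-stimulated response element (GAAA, any 2 bases, GAAA) was found in 3 of 42 (7.14%, in Psmb3, Psmd4 and Psmd9) against 2.98%. Psmb8, Psmb9 and Psmb10 were not among these 3 genes, which says only that these letters are not in this window. All 3 motifs were searched on both strands. The 5 genes shown do not mean that a motif goes with a direction. TGACNNNGC was also in Psmc6 and Psmd12, which were higher in the plate2 libraries. CCAAT was also in Psma3, Psmc1, Psmc2, Psmd4 and Psme3, which were not called higher there.

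Depth differed between the 2 plate sets and limits the values of single genes. Wells with at least 1000 transcripts were kept as cells, 436 in all and 45 to 68 per library. Kept wells summed to 99253 to 244109 transcripts in the HSC libraries and to 424490 to 733925 in the plate2 libraries. Median transcripts per kept cell were 1566.5 to 2977 and 8075 to 12515, respectively. Each library has 96 barcodes of its own, and 19 kept wells lie in the other 96. The targeted gene, Kat8, had 1 or 2 transcripts in each HSC and 4 to 12 in each plate2 library, too few to check the genotype labels. Barcode numbers kept in both libraries of a group numbered 0 in wild type HSC, 1 in heterozygous HSC, 9 in wild type plate2 and 3 in heterozygous plate2. Markers of stem cells, 11 of 11 measured, summed to 4248 to 5527 CPM (counts scaled to the library's total) in the HSC and 671 to 1352 CPM in the plate2 libraries. Wild type HSC library 1 stood apart in the 6 late erythroid markers (16040 CPM, against 811 to 1721 CPM in the other HSC libraries) and in mature neutrophil markers (5269 CPM, against 0 to 2074 CPM). Of the 232 kept HSC wells, 15 fell into clusters with erythroid or neutrophil markers and held 18.02% of that set's transcripts.

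The 50 genes together gave 17155 transcripts. Their share of a library's transcripts was 0.503% and 0.660% in wild type HSC, 0.578% and 0.439% in heterozygous HSC, 0.503% and 0.440% in wild type plate2, and 0.605% and 0.636% in heterozygous plate2 libraries. The heterozygous plate2 libraries lay above both wild type plate2 libraries, while the genotypes overlapped in the HSC libraries. Group means were 0.581 ± 0.111% in wild type HSC, 0.509 ± 0.099% in heterozygous HSC, 0.471 ± 0.044% in wild type plate2 and 0.620 ± 0.022% in heterozygous plate2 (SD, n = 2 libraries each). Thinned to 1000 transcripts, a cell held a median of 3 to 5 transcripts of these genes, depending on the library, and 39 of 45 cells to all 50 of 50 cells of a library held at least 1.

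The genes differed in level by about 2 orders of magnitude, from a mean over the 8 libraries of 3.29 CPM for Psme2 to 315 CPM for Psmb4. The 8 highest were Psmb4 (315 CPM), a structural beta subunit, Psme1 (298 CPM), the PA28 alpha activator, the alpha subunits Psma3 (278 CPM), Psma7 (243 CPM) and Psma4 (194 CPM), the nuclear activator Psme3 (233 CPM), the structural beta subunit Psmb1 (228 CPM), and the 19S scaffold Psmd1 (215 CPM). This order pools both plate sets: in the plate2 libraries Psma7, at 235.1 CPM in wild type and 342.4 CPM in heterozygotes on average, stood above Psmb4, at 160.3 and 240.8 CPM. Of all 50 genes, 41 had a transcript in each of the 8 libraries and 2 had fewer than 20 transcripts in all. The 7 alpha genes made up 17.7 ± 1.3% of the proteasome transcripts in wild type HSC and 20.9 ± 0.1% in heterozygous HSC libraries. In the plate2 libraries they made up 22.3 ± 1.6% in wild type and 24.2 ± 0.6% in heterozygotes (SD, n = 2 each). The 11 non-ATPase cap genes were the largest role group in every group, at 24.7 to 27.8% of proteasome transcripts on average. The tissue-restricted Psma8, a testis subunit, gave 14 transcripts in all. Psmb11, the thymic counterpart of Psmb5, gave 190 and stood at 29.5 ± 13.2 CPM in wild type HSC, 40.4 ± 0.8 in heterozygous HSC, 84.7 ± 36.9 in wild type plate2 and 57.6 ± 18.6 in heterozygous plate2 libraries.

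Immunoproteasome genes were present in every group, and the 3 of them did not move together. Psmb8, which encodes the counterpart of Psmb5, stood at 60.5 and 29.1 CPM in the wild type HSC libraries, 106.5 and 94.5 in heterozygous HSC, 143.1 and 77.7 in wild type plate2, and 196.8 and 165.2 in heterozygous plate2 libraries. Psmb9, the counterpart of Psmb6, stood at 30.2 and 0 CPM in wild type HSC, 40.97 and 44.8 in heterozygous HSC, 57.2 and 65.96 in wild type plate2, and 73.01 and 73.8 in heterozygous plate2 libraries. Psmb10, the counterpart of Psmb7, ran the other way, at 191.4 and 223.3 CPM in wild type HSC, 94.2 and 109.4 in heterozygous HSC, 76.3 and 77.7 in wild type plate2, and 66.7 and 82.6 in heterozygous plate2 libraries. For Psmb9 and Psmb10 the 4 HSC and the 4 plate2 libraries did not overlap, in opposite directions. For Psmb8 the 2 heterozygous HSC libraries reached above wild type plate2 library 2.

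Among the constitutive counterparts, Psmb5 ran from 68.3 to 149.2 CPM over the 8 libraries and Psmb6 from 94.2 to 252 CPM, with the 2 plate sets overlapping for both. Psmb7 was near absent, with 1, 0, 0 and 0 transcripts in the HSC and 14, 4, 20 and 12 in the plate2 libraries. Summed over libraries, 1 transcript in the HSC against 50 in the plate2 set is a ratio of 13.1 in CPM, with an exact 95% counting interval from 2.25 to 529. Psmb7 (chromosome 2, 38588036 to 38644087, minus strand, GRCm38) overlaps Nek6 on the other strand over 6571 bases, and how strand was used in counting is not given in the sources used here. A Nek6 transcript matches Psmb7 in antisense at 100% identity over 255 bases, all within the last 300 bases of Psmb7. Whether this lowered the Psmb7 counts was not tested.

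**Figure D1:**
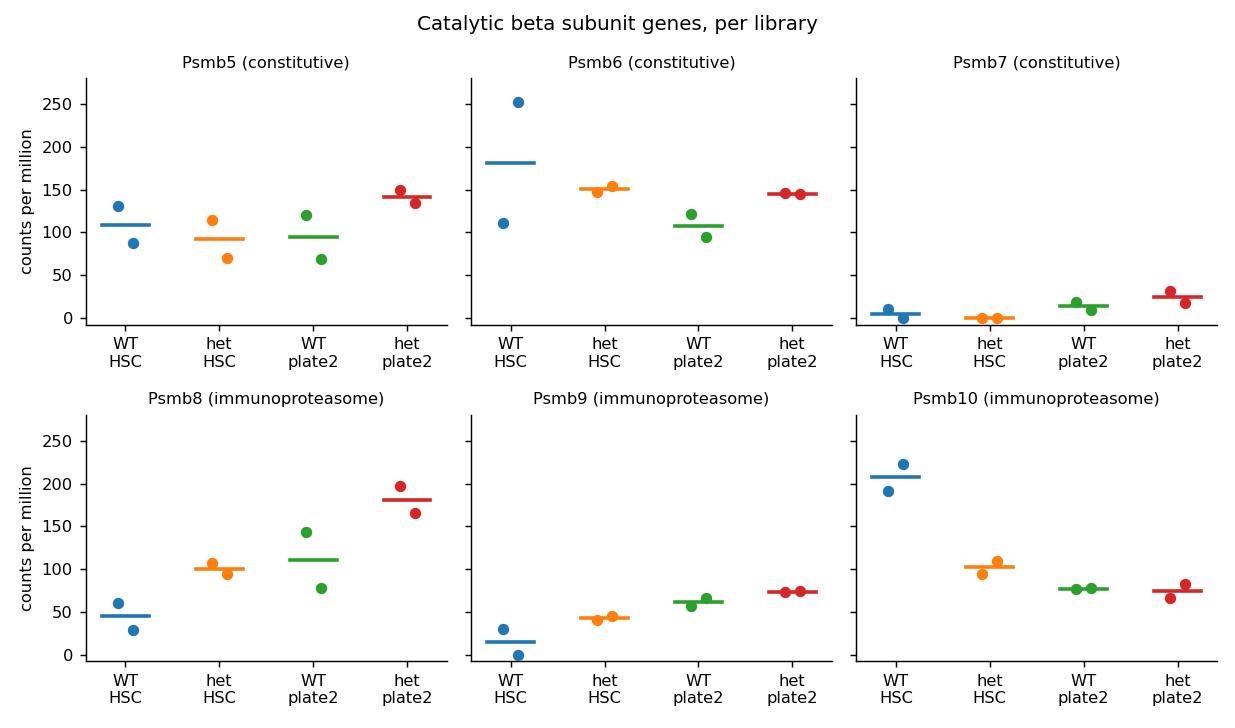
CPM of the 3 constitutive catalytic genes (upper row) and their immunoproteasome counterparts (lower row), with 1 point per library and a bar at the mean of the 2 libraries of a group. Psmb8 and Psmb9 are lowest in wild type HSC, Psmb10 is highest there, and Psmb7 stays under 32 CPM in every library.

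Taken over all 6 catalytic genes, the immunoproteasome share was about even in all libraries. It was 52.8% and 42.6% in wild type HSC, 47.97% and 52.6% in heterozygous HSC, 51.5% and 56.3% in wild type plate2, and 50.7% and 52.03% in heterozygous plate2 libraries. With Psmb10 and Psmb7 left out, Psmb8 and Psmb9 made up 27.3% and 7.89% of the 4 remaining genes' transcripts in wild type HSC and 36% and 38.4% in heterozygous HSC libraries. Wild type plate2 libraries were at 45.4% and 46.9% and heterozygous plate2 libraries at 47.8% and 46.2%. The 4 HSC values all lay below the 4 plate2 values. The exact Clopper-Pearson 95% interval of the lowest, wild type HSC library 2, ran from 1.66% to 21.4% (3 of 38 transcripts), and that of wild type plate2 library 1 from 39.9% to 50.97% (324 transcripts). Such intervals cover counting error only.

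**Figure D2:**
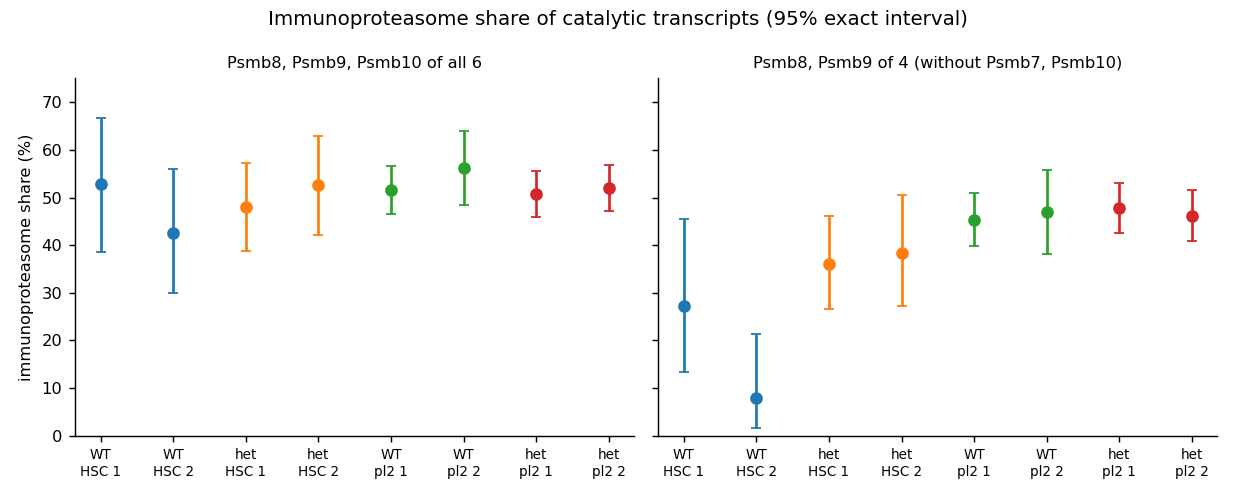
Immunoproteasome share of catalytic transcripts in each library, in percent, with exact 95% intervals, over all 6 genes (left) and without Psmb7 and Psmb10 (right). The left panel stays between 42.6% and 56.3%, while on the right the HSC libraries lie at 7.89% to 38.4% and the plate2 libraries at 45.4% to 47.8%.

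The plate2 libraries were set against the HSC libraries, with genotype as a term, to see how the genes follow the sorted population. Plate set, sort gate and library batch cannot be told apart here. Of the 50 genes, 44 passed the filter on low counts, and 16 were higher and 5 lower in plate2 at a Benjamini-Hochberg adjusted p under 0.05 (edgeR quasi-likelihood test). That is 36.4% higher and 11.4% lower, against 17.6% and 16.6% of all 6690 genes tested. The median log2 fold change was 0.54 over the 44 genes and 0.04 over all genes. A gene could pass the filter through 1 plate set alone, so these shares and medians are a description. In 8 of the 44 the HSC and plate2 libraries did not overlap (over all genes, 30.4% did not).

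Of the 7 alpha subunit genes 4 were higher and none lower. Psma2 rose from 60.5, 38.8, 114.7 and 59.7 CPM in the HSC libraries (wild type first) to between 122.5 and 205.1 CPM in the 4 plate2 libraries, so the sets did not overlap. Its log2 fold change was 1.47 ± 0.29 (SE, n = 4 libraries per set, edgeR adjusted p = 0.000564). Psma1 rose by 1.42 ± 0.35, Psma6 by 0.88 ± 0.30 and Psma7 by 0.77 ± 0.23 on the log2 scale. The Psma1 values were 20.2 and 9.71 CPM in wild type HSC, 106.5 and 59.7 in heterozygous HSC and 89.5 to 168.2 in plate2 libraries, so heterozygous HSC library 1 overlapped the plate2 range. Psma3, Psma4 and Psma5 did not pass, with log2 fold changes of -0.34, 0.34 and 0.53.

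Among constitutive beta genes, Psmb2 (1.58 ± 0.46) and Psmb3 (1.20 ± 0.37), both structural, were higher in plate2. Psmb4, which also is structural, was lower (-0.85 ± 0.29, edgeR adjusted p = 0.0272). Psmb4 stood at 312.3, 718.4, 458.8 and 228.8 CPM in the HSC libraries and at 158.1, 162.5, 217.4 and 264.1 CPM in the plate2 libraries, so heterozygous HSC library 2 fell within the plate2 range. In wild type HSC library 2, 1 well of 46 held 31.1% of the Psmb4 transcripts, and without this library the difference was -0.44 and did not pass (edgeR adjusted p = 0.194). Of the catalytic genes Psmb5 (0.50 ± 0.29) and Psmb6 (-0.14 ± 0.27) did not pass, with 95% intervals from -0.07 to 1.07 and from -0.66 to 0.38.

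All 3 immunoproteasome genes passed, in both directions. Psmb8 rose by 1.21 ± 0.30 (edgeR adjusted p = 0.00322) and Psmb9 by 1.31 ± 0.39 (adjusted p = 0.0117) on the log2 scale, while Psmb10 fell by 0.69 ± 0.27 on the log2 scale (edgeR adjusted p = 0.0487). The Psmb8 and Psmb9 calls held under all alternatives in which these genes were tested, 16 of 17. The Psmb10 call was lost under 13 of 17 alternatives, leaving out any 1 library among them, with edgeR adjusted p from 0.0502 to 0.178 without 1 library and up to 0.253 with cells of at least 2000 transcripts. The thymic Psmb11 was higher as well (1.08 ± 0.38), a call kept under 9 alternatives and lost under 7. In the plate2 set Psmb11 stood highest, at 295.8 CPM, in 27 wells of an unnamed cluster led by predicted gene models. That cluster had the lowest proteasome share (0.112%), and Psmb11 stood at 0 to 188.4 CPM in the other plate2 clusters.

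In the 19S cap, the ATPases Psmc6 (1.35 ± 0.36) and Psmc5 (0.91 ± 0.33) were higher and the other 4 did not pass. Of 11 non-ATPase genes, Psmd12 (1.04 ± 0.33), Psmd3 (0.98 ± 0.31) and Psmd7 (0.76 ± 0.27) were higher. Psmd7 encodes the partner of the deubiquitinase subunit Psmd14, and Psmd3 and Psmd12 encode other lid subunits. The lid gene Psmd13 was lower (-0.80 ± 0.30), at 141.1, 349.5, 155.7 and 109.4 CPM in the HSC and 83.1, 70.7, 88.9 and 106.2 CPM in the plate2 libraries. Without wild type HSC library 2 its difference was -0.35 and did not pass (edgeR adjusted p = 0.36). The assembly chaperone Psmg2, which pairs with Psmg1 to build the alpha ring, was the member of its group that passed (0.96 ± 0.31), and the other 4 tested chaperone genes had positive values of 0.25 to 0.99.

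Among activators and inhibitors, Psme1 and Psmf1 were lower and Psme2b was higher. Psme1 stood at 282.1, 495.1, 368.7 and 383.1 CPM in the HSC and at 177.1, 193.2, 236.5 and 252.3 CPM in the plate2 libraries, without overlap (-0.61 ± 0.23, edgeR adjusted p = 0.0445). Psmf1, which encodes the inhibitor PI31, stood at 50.4, 174.7, 139.3 and 74.6 CPM in the HSC and 81.8, 42.4, 42.9 and 42.8 CPM in the plate2 libraries (-0.88 ± 0.34, edgeR adjusted p = 0.0478), where wild type plate2 library 1 lay within the HSC range. Neither call held without wild type HSC library 2, where Psme1 stood at -0.39 (edgeR adjusted p = 0.205) and Psmf1 at -0.69 (edgeR adjusted p = 0.165). All 5 genes called lower lost the call without wild type HSC library 2, heterozygous HSC library 1, wild type plate2 library 2 or heterozygous plate2 library 1. In contrast, among the genes called higher, with Psmc5 left out of the tally, 7 kept the call under all alternatives that tested them. These were Psma1, Psma2, Psmb2, Psmb8, Psmb9, Psmc6 and Psme2b, each tested under 16 of the 17 alternatives. The fit on cells thinned to 1000 transcripts left 10 genes tested, with 2 called higher. In the HSC libraries Psme2b had 1, 0, 8 and 7 transcripts and Psmb2 had 1, 0, 7 and 9.

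**Figure D3:**
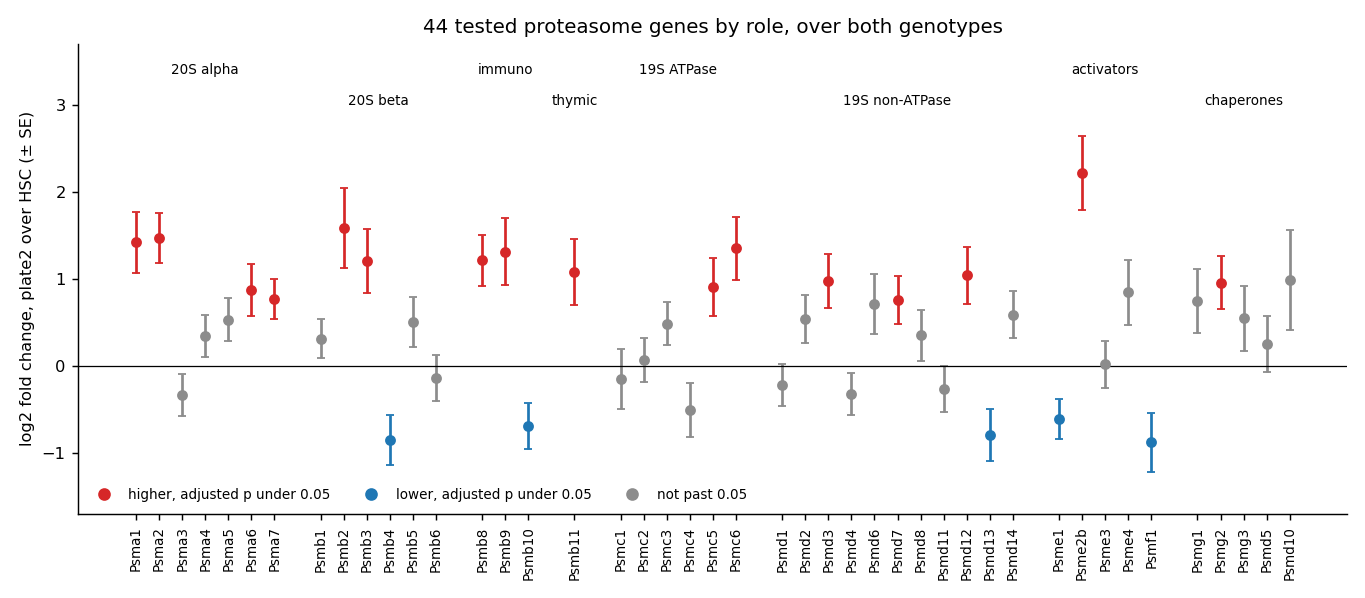
Log2 fold change of the plate2 over the HSC libraries for the 44 tested genes (vertical axis, bars are SE), ordered by role along the horizontal axis. Red points (16) are higher and blue points (5) lower at an adjusted p under 0.05, and the 2 colours stand side by side among the immunoproteasome genes, constitutive beta genes, non-ATPase cap genes and activators.

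Within each genotype fewer genes passed. In wild type cells 9 were higher and 3 lower (edgeR, against 9.55% and 8.21% of all genes). Those higher were Psma1, Psma2, Psmb2, Psmb8, Psmb9, Psmc6, Psmd12, Psme2b and Psme4, which encodes the activator PA200, and those lower were Psmb4, Psmb10 and Psmd13. Psme2b and Psmb2 rest on 1 transcript each in the wild type HSC libraries, and Psma1 and Psmb9 on 3 each. Their ratios of CPM, with exact 95% counting intervals, were 15.02 (2.62 to 599.9) for Psme2b, 10.8 (1.87 to 434) for Psmb2, 7.22 (2.41 to 35.5) for Psma1 and 4.07 (1.34 to 20.2) for Psmb9. The remaining genes called higher also rest on few transcripts in the 2 wild type HSC libraries. Psmc6 and Psme4 had 3 and 1 each, Psmd12 1 and 5, Psmb8 6 and 3, and Psma2 6 and 4. In heterozygous cells 7 were higher and none lower, against 11.9% and 10.3% of all genes. These were Psma2, Psma6, Psma7, Psmb3, Psmb8, Psmd7 and Psme2b, of which Psmb3 had the largest log2 fold change (2.10 ± 0.42, edgeR adjusted p = 0.00133). With DESeq2, 2 were higher and 2 lower in wild type and 4 higher and none lower in heterozygotes. In heterozygotes, 19 of the 44 genes had an unadjusted edgeR p under 0.05 in either direction. The 3 of smallest p below 0 there, Psmf1 (-1.14 ± 0.44), Psme1 (-0.42 ± 0.29) and Psmb4 (-0.32 ± 0.35), did not pass. The wild type and heterozygous differences were not shown to differ for any gene, since none passed in the test of the difference between them. Libraries did not overlap for 27 of the 44 genes in wild type and 33 in heterozygotes, against 59.6% and 63.5% of all genes. These counts rest on single libraries. In wild type 5 genes were higher without HSC library 1, 1 without HSC library 2 and 2 without plate2 library 1, and none was lower without HSC library 2 or either plate2 library. In heterozygotes 2 were higher without HSC library 2, 4 without plate2 library 1 and 1 without plate2 library 2, while 11 were higher without wild type HSC library 1, a fit in which 48 of the 50 genes passed the filter.

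Some of these genes have near-identical copies, so their counts are uncertain. By BLAST against GENCODE vM21 transcripts, 16 of the 50 had a copy or overlapping transcript at 95% identity or more over at least 200 bases, and for 11 that copy had counts. Psme2, the PA28 beta activator that pairs with Psme1, had 0 transcripts in all 4 HSC libraries and 17 in the plate2 libraries, while its copy Psme2b on chromosome 11 had 16 and 225. The 2 transcripts are 99.37% identical over 794 bases. Against a floor of 3 transcripts in the HSC libraries, the Psme2 ratio in CPM was 1.49 over both genotypes (17 plate2 transcripts). In wild type it was 0.291 (5 plate2 transcripts). These ratios carry no counting interval and set no minimum fold change. Psmb3 and the pseudogene Gm4950 are 97.07% identical over 615 bases, and Gm4950 stood at 35.5 CPM in the HSC and 98.5 CPM in the plate2 set. Gm8394, a copy of Psma5, stood at 6.18 and 46.6 CPM, and Gm5422, a copy of Psmd2, at 1.54 and 36.9 CPM. All 3 copies stood higher in the plate2 set, and Psma5 (135.9 and 162.6 CPM) and Psmd2 (91.1 and 114.3 CPM) differed less than theirs did. With each copy merged into its gene, an alternative chosen after seeing the data, 18 genes were higher and 5 lower, and Psma5 (0.84 ± 0.24) and Psmd2 (0.92 ± 0.27) passed in addition. Whether the 2 plate sets were mapped alike is not given in the sources used here, and its part in these differences was not tested.

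The genotype comparison asks whether losing 1 copy of Mof changes these genes. No proteasome gene passed in either plate set, over both sets, or in the difference between sets (edgeR adjusted p under 0.05, and none with DESeq2). Of all genes 0.0149% passed as higher in heterozygotes and 0.0% as lower in the HSC libraries, and 0.0299% and 0.523% in the plate2 libraries. Over both sets 0.0149% and 0.12% passed, and 0.0% in the difference. At an unadjusted edgeR p under 0.05 there were 8 of the 44 in the HSC libraries, 1 in plate2, 2 over both sets and 6 in the difference. A simulated 2-fold change was recovered for 2% of genes in the HSC and 23% in the plate2 comparison, and a 4-fold change for 40% and 85%.

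In the HSC libraries 20 of the 44 genes had a positive log2 fold change, heterozygous over wild type, with a median of -0.13 against 0.03 over all genes. In 16 of the 44 the libraries of the genotypes did not overlap, against 37.2% of all genes. The genes of smallest p below 0, which did not pass, were Psme3 (-1.20 ± 0.35, edgeR adjusted p = 0.248), Psmb10 (-1.10 ± 0.37, adjusted p = 0.31) and Psmb3 (-1.46 ± 0.55, adjusted p = 0.357). Psme3 stood at 241.8 and 466 CPM in wild type and 151.6 and 174.1 CPM in heterozygous HSC libraries. It passed with cells of at least 2000 transcripts only (-1.78 ± 0.37, edgeR adjusted p = 0.0361), and with cells thinned to 1000 transcripts its value was 0.02. Leaving out wild type HSC library 2 gave -0.55, and leaving out the HSC wells of named clusters gave -0.39. Those above 0, Psma1, Psmd12 and Psmb2, did not pass either (edgeR adjusted p = 0.269, 0.427 and 0.436). Psma1 rests on 3 and Psmb2 on 1 transcript in wild type HSC, which gives ratios of CPM of 5.76 (exact 95% counting interval 1.83 to 29.1) and 7.27 (1.13 to 305). Psmd12 stood at 10.1 and 48.5 CPM in wild type and 69.6 and 94.5 CPM in heterozygotes. Psmb8 was 1.10 ± 0.56, with an approximate 95% interval from 0.01 to 2.19. Its unadjusted edgeR p was 0.061, so this interval is narrower than the test, and Psmb8 did not pass (edgeR adjusted p = 0.483).

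In the plate2 libraries 34 of the 44 genes lay above 0, all 7 alpha and all 6 tested constitutive beta genes among them, and none passed. The median was 0.28 against a value near 0 over all genes, of which 49.97% lay above 0. In 30 of the 44 the wild type and heterozygous libraries did not overlap, against 43.8% of all genes. Those of smallest p were Psma6 at 0.64 ± 0.31 and Psmd7 at 0.55 ± 0.28 (edgeR adjusted p = 0.972 each), and Psma4 at 0.49 ± 0.27 (edgeR adjusted p = 0.997). Psma6 stood at 111.7 and 61.2 CPM in wild type and 152.4 and 151.9 CPM in heterozygous plate2 libraries, and Psmd7 at 177.1 and 143.7 against 228.6 and 290.6 CPM. On the other side Psmf1 (-0.72 ± 0.41) and Psmb11 (-0.63 ± 0.36) had the smallest p. Of the immunoproteasome genes, Psmb8 (0.54 ± 0.31) did not pass, with a 95% interval from -0.06 to 1.14. Psmb10 (-0.17 ± 0.30) and Psmb9 (0.13 ± 0.35) did not pass either, with 95% intervals from -0.77 to 0.42 and from -0.55 to 0.81.

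Over both sets Psmb8 had the smallest p (0.68 ± 0.28, 95% interval 0.13 to 1.23, n = 4 libraries per genotype, edgeR adjusted p = 0.764), followed by Psmb10 on the other side (-0.56 ± 0.26, edgeR adjusted p = 0.824). Next by p on the positive side were Psma1 (0.66 ± 0.32) and Psme2b (0.65 ± 0.35), and on the negative side Psme3 (-0.50 ± 0.27) and Psmf1 (-0.48 ± 0.33), and none passed. No gene's 4 wild type and 4 heterozygous libraries were apart, against 1.88% of all genes. For the difference between sets, 29 of 44 values lay above 0, with a median of 0.38 against -0.07 over all genes. Psmb3 (1.95 ± 0.63), Psme3 (1.22 ± 0.46) and Psmd7 (1.16 ± 0.47) had the smallest p above 0, and Psma1 (-2.11 ± 0.83), Psme4 (-1.65 ± 0.83) and Psmd12 (-1.29 ± 0.70) below. Their edgeR adjusted p ran from 0.38 to 0.6. Leaving out 1 library moved Psmd12 between -2.90 and -0.63 and Psme4 between -2.69 and -1.13.

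**Figure D4:**
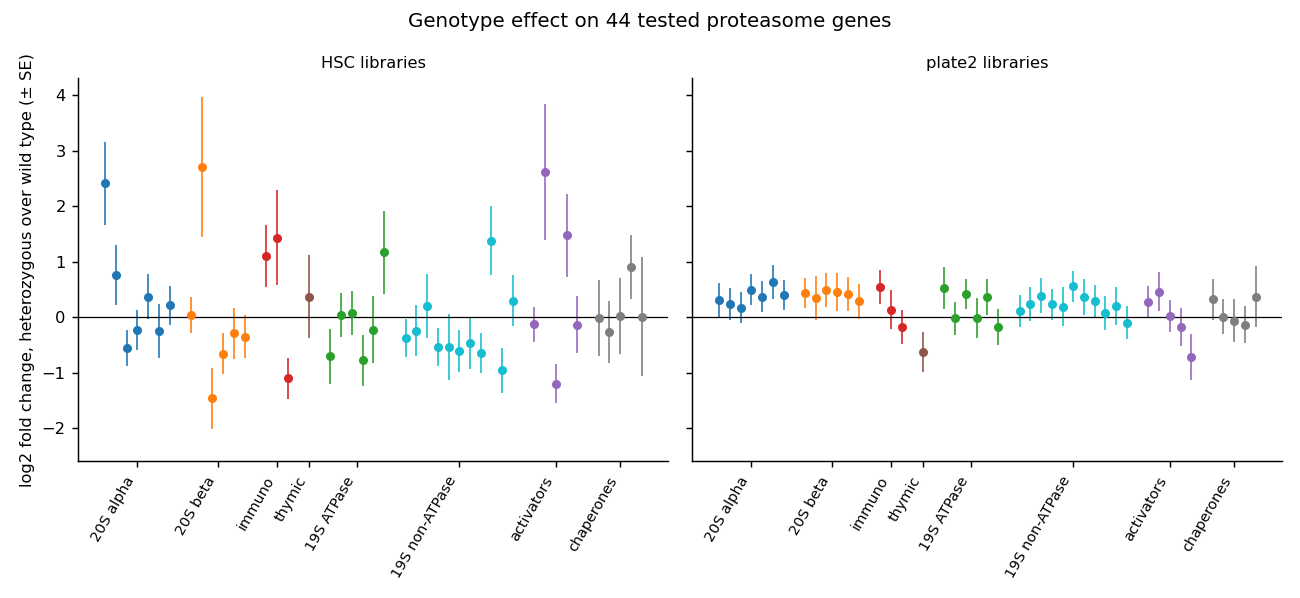
Heterozygous over wild type libraries as log2 fold change for the 44 tested genes (points, with SE), by role, in the HSC (left) and plate2 (right) libraries. On the left 20 of 44 points lie above 0 with wide errors, on the right 34 of 44, and none passed an adjusted p under 0.05.

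Cells were grouped into 10 clusters with the proteasome genes left out of the clustering, and clusters are compared here only as a description. Clusters with erythroid progenitor markers (65 wells) gave proteasome genes 0.737% of their transcripts, a cluster with neutrophil progenitor markers (24 wells) 0.645%, a cluster with mature neutrophil markers (11 wells) 0.283% and the unnamed clusters (336 wells) 0.424%. In the 4 plate2 libraries the erythroid progenitor-like wells stood at 0.673% and 0.672% (wild type) and at 0.720% and 0.767% (heterozygous libraries). The unnamed wells of the same libraries stood at 0.378% and 0.355% and at 0.416% and 0.484%. Each library thus had the higher share in its erythroid progenitor-like wells, and so did the 3 HSC libraries that held such wells (0.710% to 0.991%, against 0.459% to 0.523% in unnamed wells). One erythroid progenitor-like cluster is shallow, with a median of 1159 transcripts in 25 wells, of which 15 lie in the other 96 barcodes. The lowest share, 0.112%, was in 27 plate2 wells of an unnamed cluster led by predicted gene models. The unnamed wells are thus a mixture. In plate2 they also hold 36 wells of a cluster with the erythroid markers Car1 and Gata1 (0.4875%) and 56 wells of another (0.414%).

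The makeup of the plate2 libraries differed between the 2 wild type and the 2 heterozygous ones, which was not tested. Erythroid progenitor-like wells held 28.6% and 27.8% of the kept transcripts in wild type and 44.6% and 42.4% in heterozygous plate2 libraries. Counted as wells they were 23.1% and 24.4% against 33.3% and 28.3%. Neutrophil progenitor-like wells overlapped between genotypes, at 11 and 1 in wild type and 4 and 8 in heterozygous libraries. All 10 erythroid progenitor markers were measured, and they summed to 3447 and 3635 CPM in wild type and 4203 and 4259 CPM in heterozygotes. In erythroid progenitor-like, neutrophil progenitor-like and unnamed wells, both heterozygous plate2 libraries lay above both wild type ones in proteasome share. For neutrophil progenitor-like wells the shares were 0.590% and 0.426% (the latter from 1 well) in wild type and 0.735% and 0.652% in heterozygotes. Mature neutrophil-like wells, of low proteasome share (0.185% and 0.149%), were found in the wild type plate2 libraries, 3 in each, and not in the heterozygous ones. The 9 of 9 measured mature neutrophil markers summed to 2620 and 2024 CPM in wild type and to 296.8 and 17.7 CPM in heterozygotes. The part of these wells in the genotype difference was not tested.

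**Figure D5:**
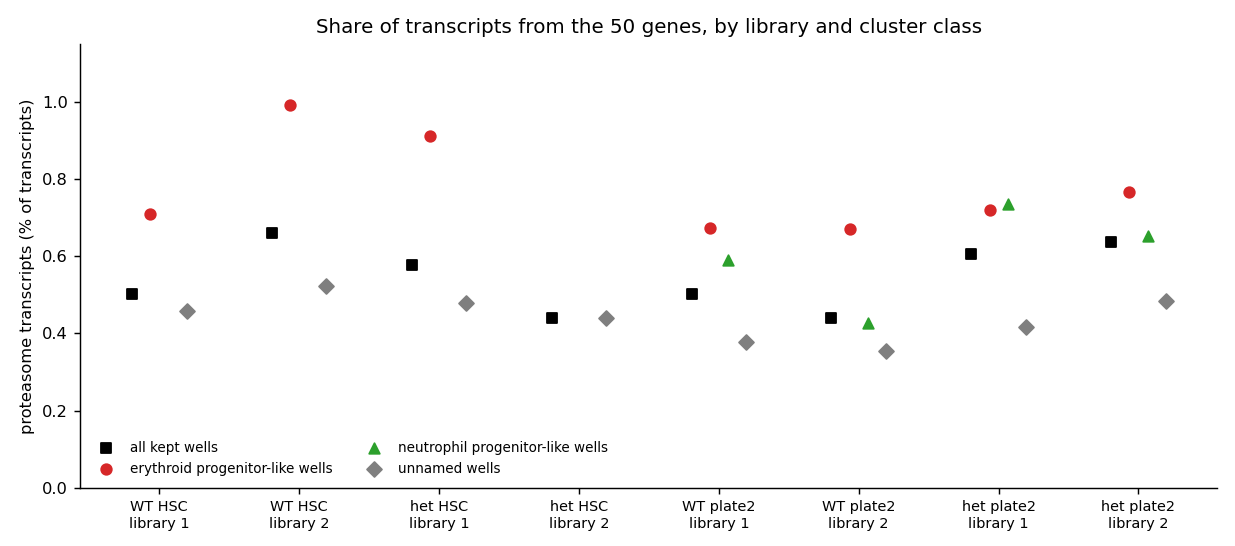
Share of transcripts from the 50 genes, in percent, for all kept wells of each library and for its erythroid progenitor-like, neutrophil progenitor-like and unnamed wells (the mature neutrophil-like cluster is not drawn). Erythroid progenitor-like wells lie above unnamed wells in each of the 7 libraries that hold them.

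The catalytic genes differed between clusters as well. The immunoproteasome share over all 6 genes was 38.4% in erythroid progenitor-like wells, 57.1% in neutrophil progenitor-like wells and 57.4% in unnamed wells. These shares include Psmb10 and Psmb7, and shares without this pair were not computed for clusters. Psmb7 stood at 8.91 CPM in unnamed, 25.2 CPM in neutrophil progenitor-like and 26.1 CPM in erythroid progenitor-like wells. The close values of neutrophil progenitor-like and unnamed wells thus do not speak for Psmb8 and Psmb9 alone. The unnamed wells also pool clusters that differ in this share. In the 4 plate2 libraries the share over all 6 genes was 30.6%, 42.6%, 46.4% and 37.9% in erythroid progenitor-like wells. It was 57.3%, 62.6%, 57.8% and 61.2% in unnamed wells of the same libraries. The erythroid progenitor-like values were thus lower in each of them. Psmb8 stood at 335 CPM in neutrophil progenitor-like, 98.2 CPM in erythroid progenitor-like and 115.9 CPM in unnamed wells. The 6 of 6 measured neutrophil progenitor markers summed to 100.8 to 245.8 CPM in the HSC libraries, to 2053 and 138.99 CPM in wild type plate2 and to 3876 and 2204 CPM in heterozygous plate2 libraries, and Psmb8 was lowest among plate2 libraries where they were lowest. Their part in the Psmb8 values was not tested. In the 10 erythroid progenitor-like wells of the HSC libraries neither Psmb8 nor Psmb9 had a transcript. Psme1 stood at 334.6 CPM in neutrophil progenitor-like, 187.4 CPM in erythroid progenitor-like and 270.4 CPM in unnamed wells. With the 15 HSC wells of the named clusters left out, an alternative chosen after seeing the data, 22 of the genes were higher and 2 lower in plate2 over both genotypes (43 tested, edgeR). The 2 lower ones were Psmb10 (-0.80 ± 0.26) and Psme1 (-0.65 ± 0.20), and 15 of the 16 genes called higher kept the call.

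Other genes of the pathway were taken from 4 lists. Of 12 tested genes for assembly factors, receptors and regulators, Shfm1, a small lid subunit also named Sem1, was higher in plate2 (1.91 ± 0.32) and Zfand5 was lower (-0.93 ± 0.26) over both genotypes. Shfm1 stood at 70.5, 9.71, 53.3 and 89.5 CPM in the HSC and 164.9, 160.2, 209.5 and 196.2 CPM in the plate2 libraries, without overlap. Among genes for ubiquitin and delivery, Rps27a, a ubiquitin precursor (1.06 ± 0.22), and the shuttle Rad23b (0.75 ± 0.26) were higher. Uba1, the main ubiquitin-activating enzyme (-1.14 ± 0.24), and the autophagy receptor Sqstm1 (-1.21 ± 0.25) were lower. Over both genotypes 17.6% of all genes were higher and 16.6% lower.

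Genes of antigen processing were called in both directions, and those of the interferon response mostly as lower. Of 9 tested antigen processing genes 2 were higher in plate2, Pdia3 (1.30 ± 0.25) and Calr (1.05 ± 0.21), both chaperones of the peptide loading complex. Lower were Nlrc5, an activator of MHC class I genes (-1.72 ± 0.39), Tapbp (-0.80 ± 0.25) and H2-D1 (-0.71 ± 0.24). Of all genes 17.6% were higher and 16.6% lower over both genotypes. In wild type 4 genes of the list were higher (B2m, Pdia3, Tap2 and Calr) and 1 lower (Nlrc5), against 9.55% and 8.21% of all genes. In heterozygotes 2 were higher (Calr and Pdia3) and 2 lower (H2-D1 and Nlrc5), against 11.9% and 10.3%. Of 11 tested interferon response genes 1 was higher, Bst2 (1.27 ± 0.46), and 6 were lower, with Oasl2 (-3.10 ± 0.35), Irf9 (-1.60 ± 0.25), Ifit1 (-2.88 ± 0.50) and Gbp2 (-2.92 ± 0.61) of smallest p. The list's median log2 fold change was -1.21 over both genotypes, against 0.04 over all genes. In wild type the median was -0.13, with 4 genes lower and none higher, against 8.21% and 9.55% of all genes. In heterozygotes it was -1.64, with 7 lower and none higher, against 10.3% and 11.9%. The difference between these medians was not tested. No gene of the 4 lists passed in a genotype comparison.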

How the data were processed

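RNA of sorted bone marrow cells was read out with CEL-Seq2 in 8 libraries, 2 in each of 4 groups. The deposited values are expected counts, estimated transcripts from distinct identifiers, not scaled for depth. BWA 0.6.2-r126 and mm10 are named per the submitters' processing notes, while annotation and counter were not given in the sources used here.

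Values were rounded per well. Wells with at least 1000 transcripts were kept, and counts were summed per library and fitted over all 6690 genes passing filterByExpr by edgeR's two-sided quasi-likelihood test (edgeR 4.0.16, R 4.3.3, TMM), with a one-way layout of 4 groups or plate set plus genotype. SE are those of the log2 fold change, and CPM carry no TMM factor. Clusters came from scanpy 1.11.5 (2000 variable genes, 15 components, 15 neighbours, Leiden resolution 1), copies from BLAST 2.17.0. The fit was tested on simulated data. No doublet caller was run. The genes and lists were chosen with earlier results of these data known. Genes named are the 3 catalytic pairs, Psme1 and Psme2, the 8 highest, Psmc3ip, those passing (up to 15 a side, otherwise the 3 of smallest p), and up to 4 passing per list; others were chosen after their values were seen. Same-numbered HSC libraries did not deviate together (r = -0.09 over genes). Alternatives were RLE, DESeq2 1.42.0, no filter, other sets of wells, thinning, a replicate block and leaving out each library. One gene of the ubiquitin list is not reported here.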

Additional observations from a re-analysis of the deposited data

How the results depend on the processing

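Over both genotypes the plate2 count of 16 higher and 5 lower proteasome genes was 16 and 5 with RLE, 12 and 1 with DESeq2, 18 and 1 with no low-count filter, 11 and 2 with at least 2000 transcripts per cell, 22 and 5 with all barcodes, 16 and 4 with own barcodes, and 2 and 0 with cells thinned to 1000 transcripts, which left 10 genes tested. Leaving out each library gave 10 to 16 higher, with 10 without heterozygous plate2 library 2, and 0 to 4 lower. With HSC wells of named clusters left out it was 22 and 2. In wild type (9 higher, 3 lower) DESeq2 and at least 2000 transcripts each gave 2 higher, thinning gave 0 higher and 1 lower, all barcodes 5 lower, and leave-one-out fits 1 to 9 higher and 0 to 4 lower, with 1 and 0 without wild type HSC library 2. In heterozygotes (7 higher, 0 lower) DESeq2 gave 4 higher, thinning 1, all barcodes 12 higher and 1 lower, leaving out the HSC wells of named clusters 17, and leave-one-out fits 1 to 11 higher and 0 to 1 lower, with 1 without heterozygous plate2 library 2. Genotype counts stayed at 0 but for 1 lower gene, Psme3, in the HSC libraries at 2000 transcripts. Thinning turned Psme3 to 0.024 in the HSC genotype comparison and to -0.38 in the difference between sets, and in the heterozygous plate2 comparison Psmb4 ran from -0.76 without heterozygous HSC library 2 to 0.29 without heterozygous HSC library 1. With the replicate number as a block in the HSC libraries 0 genes passed; the libraries share only a number. Psmf1 passed in the heterozygous plate2 comparison under 4 alternatives. The cause of each change was not tested.

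Thinning moved the proteasome share to 0.400% in wild type and 0.523% in heterozygous plate2 libraries. It moved the immunoproteasome share to 58% in wild type HSC, 56.5% in heterozygous HSC, 59.8% in wild type plate2 and 58.7% in heterozygous plate2 libraries. At 2000 transcripts the wild type HSC share was 37.96%, and without the HSC wells of named clusters the heterozygous HSC share was 54.6%. Leaving out 1 library left shares at the value of the other. Depth limits the HSC values most, where genes such as Psmb9 rest on 0 to 10 transcripts per library.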
